A study of Mus musculus with 6 samples.

Results

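The unfolded protein response genes examined here are the 10 that encode its sensors and transcription factors: ERN1, EIF2AK3, ATF6, ATF6B, XBP1, ATF4, DDIT3, CREB3, CREB3L1 and CREB3L2. They were taken by symbol from the 16736 rows of the deposited count table. All 10 had 1 row each and passed the filter on low counts, as did 13873 rows in all. The samples are 6 poly(A) RNA-seq libraries of whole pituitary from male mice, 3 labelled RD and 3 labelled HFD, and all the mice had 4 h of feeding after a 16 h fast. What RD and HFD stand for is not written out, and strain, age, diet duration and genotype are not given. Nothing states that replicates came from separate mice, and the p-values then reflect only library-to-library spread, which may be technical. The series' title links obesity with this response in the pituitary.

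The unfolded protein response is the set of signals by which the endoplasmic reticulum (ER) reports that protein folding lags behind protein entry. IRE1 alpha (ERN1) is a kinase and ribonuclease that splices XBP1 mRNA, PERK (EIF2AK3) is a kinase that phosphorylates eIF2 alpha and so favours translation of ATF4, and ATF6 is a membrane-bound factor released by Golgi proteases. CREB3, CREB3L1 and CREB3L2 are basic leucine zipper factors released in the same way, and are best known for adjusting the capacity of the secretory pathway. Hormone-secreting cells depend on these signals because they send large amounts of protein through the ER. Splicing, phosphorylation and cleavage of these proteins cannot be read from gene counts, so the values below are transcript levels alone.

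ERN1 and CREB3L1 transcripts were lower in HFD than in RD pituitaries, and the other 8 genes did not pass the test. ERN1 fell to 0.653 of its RD level and CREB3L1 to 0.357. By edgeR's quasi-likelihood test with Benjamini-Hochberg adjustment over all tested genes, 2 of the 10 were called lower and 0 higher, where called means an adjusted p under 0.05. Over all tested genes, 4.61% were called lower, 5.87% higher and 10.5% in either direction. At an unadjusted p under 0.05, 5 of the 10 passed, against 26.5% of tested genes. All 10 log2 changes (HFD/RD) lay below 0, between -1.48 and -0.045 with a median of -0.23, while 50.4% of tested genes lay below 0 and their median was -0.0023. With library size as the only scaling, or without RD replicate 3, 9 of the 10 lay below 0. The 10 genes were picked when earlier results from these libraries were known, so their contrast with all tested genes can come from that choice. In a whole gland, fewer cells of a type and less RNA per cell cannot be told apart.

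Totals over the listed rows ranged from 14185372 to 18111345 counts per library. The pituitary hormone genes GH1, PRL and POMC were abundant in every library, as the tissue label requires. RD replicate 3 stood apart on the first principal component (-36.2, against -18.5 and -9.68 in the other RD libraries and 19.1 to 24.4 in HFD). It also held the highest level of 9 of the 10 genes among the 6 libraries, ERN1 being the exception, while 28.0% of all tested genes peaked there. Its part in the results was measured by leaving it out, and the values without it stand beside each of the 10 genes below. The coefficient of variation was larger in RD than in HFD for 8 of the 10 genes, against 60.9% of tested genes.

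**Figure D1:**
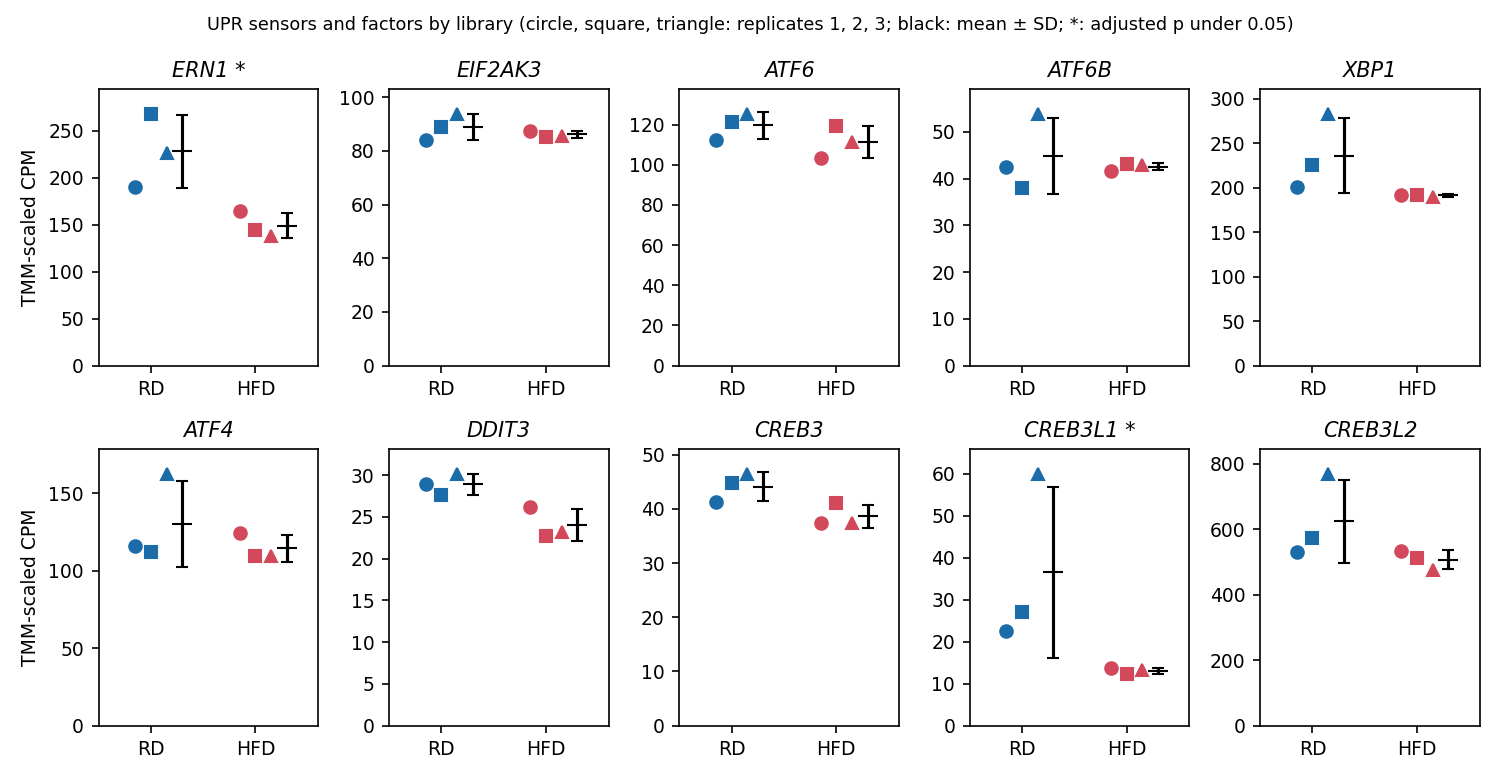
TMM-scaled CPM (y axis from 0) of the 10 genes in the 3 RD (blue) and 3 HFD (red) libraries. Circles, squares and triangles are replicates 1, 2 and 3, black bars are mean ± SD, and asterisks mark genes called by edgeR. The HFD points of CREB3L1 sit between 12.4 and 13.7 CPM, below all RD points, and the RD triangle is the highest point for each gene but ERN1.

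ERN1 lies on chromosome 11 (mm10, which is GRCm38; 106394650 to 106487852, minus strand, in GENCODE M21). Its level in CPM (counts scaled to a common library total with edgeR's TMM factors) was 190.2, 268 and 227 in RD replicates 1, 2 and 3, and 164, 145 and 138 in HFD replicates 1, 2 and 3. Every HFD library lay below every RD library. The RD mean of 228 ± 38.7 CPM compares with 149 ± 13.6 CPM in HFD (SD, n = 3 each). The log2 change was -0.62 ± 0.12 (SE; 95% interval -0.88 to -0.35; edgeR adjusted p = 0.0115). This drop exceeded 90.9% of all tested changes in size. Without RD replicate 3 the log2 change was -0.63 (adjusted p = 0.0102). ERN1 was called in 14 of 16 other settings, including all 10 with other scalings, filters or tools. The call was lost when HFD replicate 2 (adjusted p = 0.0606) or 3 (0.0695) was left out.

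EIF2AK3, the gene of the other ER-membrane kinase (chromosome 6, 70844515 to 70905245, plus strand), stood at 84.0, 88.9 and 93.7 CPM in RD and 87.6, 85.3 and 85.7 CPM in HFD. The groups overlapped. Its log2 change was -0.045 ± 0.072, with a 95% interval from -0.21 to 0.12 (edgeR adjusted p = 0.740), and with library size as the only scaling its sign turned (0.024). Without RD replicate 3 its log2 change was -0.010. The raw counts of ERN1 and EIF2AK3 in the same library give a ratio that needs no scaling. That ratio was 2.26, 3.01 and 2.42 in RD and 1.88, 1.70 and 1.61 in HFD. The HFD ratios all lay below the RD ratios, a mean difference of -0.56 on the log2 scale. With 3 libraries against 3, an exact two-sided permutation test cannot go below p = 0.10, which this ratio reached (0.20 after adjustment over the 4 ratios compared).

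The promoters of both kinases are shown to mark the ends of the ER stress response element in them. The sequences are RefSeq's (GRCm38.p6), from 250 bases before to 50 after the annotated start, 5′ to 3′ on the gene's strand. Capitals mark CCAAT and CCACG on either strand (ATTGG and CGTGG on the other), which are the ends of the ER stress response element.
ERN1 (chr11:106487747-106488046): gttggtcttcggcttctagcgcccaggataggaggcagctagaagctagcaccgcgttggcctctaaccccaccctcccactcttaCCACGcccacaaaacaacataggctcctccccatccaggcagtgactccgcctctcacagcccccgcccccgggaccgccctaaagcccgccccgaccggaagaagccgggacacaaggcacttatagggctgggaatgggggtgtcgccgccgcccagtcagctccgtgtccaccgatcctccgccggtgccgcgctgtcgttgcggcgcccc
EIF2AK3 (chr6:70844265-70844564): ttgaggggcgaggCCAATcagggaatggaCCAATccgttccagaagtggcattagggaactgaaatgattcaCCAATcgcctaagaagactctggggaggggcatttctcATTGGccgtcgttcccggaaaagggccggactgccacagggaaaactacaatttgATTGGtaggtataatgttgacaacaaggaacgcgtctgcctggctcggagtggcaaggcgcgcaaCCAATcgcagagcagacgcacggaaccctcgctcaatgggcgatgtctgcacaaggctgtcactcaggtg
The ERN1 window held 1 CCACG and no CCAAT, and the EIF2AK3 window held 6 CCAAT matches over both strands and no CCACG. Of 32851 RefSeq promoters of this length, 32.8% held CCACG and 37.4% held CCAAT, so single matches are common. Of tested genes, 10.2% of those with CCACG and 10.5% of those with CCAAT were called, against 10.4% with any promoter in the table. Whether these matches bear on the calls of ERN1 and EIF2AK3 was not tested. Promoters were found for 8 of the 10 genes; ATF6 and CREB3L1 had none in the table. None of the 8 windows held the full element, which is CCAAT, 9 bases of any kind, then CCACG.

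ATF6 and ATF6B encode the paired membrane-bound factors that are cut in the Golgi to free a transcription factor. ATF6 (chromosome 1, 170704674 to 170867771, minus strand) was at 112, 122 and 125 CPM in RD and 103, 119 and 111 CPM in HFD. Its groups overlapped, and its log2 change was -0.10 ± 0.08 (95% interval -0.28 to 0.07; edgeR adjusted p = 0.436), or -0.075 without RD replicate 3. ATF6B (chromosome 17, 34647146 to 34655074, plus strand) was at 42.5, 38.1 and 53.8 CPM in RD and 41.6, 43.1 and 42.9 CPM in HFD. The HFD libraries of ATF6B differed by less than 2 CPM and lay within the RD range. Its log2 change was -0.08 ± 0.12 (95% interval -0.35 to 0.19) with all libraries and 0.073 without RD replicate 3. The ratio of ATF6 to ATF6B counts was 2.64, 3.19 and 2.33 in RD and 2.48, 2.77 and 2.60 in HFD, with overlap (exact permutation p = 0.80, two-sided; 0.80 adjusted).

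XBP1, the factor made active by IRE1 splicing (chromosome 11, 5520659 to 5525893, plus strand), was at 200.4, 225 and 283 CPM in RD. In HFD it was at 192.3, 192 and 189.7 CPM, a coefficient of variation of 0.726% against 17.8% in RD. The groups did not overlap, which was so for 32.5% of tested genes and, with HFD lower, for 15.6%. The log2 change was -0.30 ± 0.11 (95% interval -0.55 to -0.06), and XBP1 was not called (edgeR adjusted p = 0.108). It depended on which RD library was present: without RD replicate 1 the change was -0.42 (adjusted p = 0.0247), and without RD replicate 3 it was -0.16 (0.152). In the remaining settings XBP1 was not called.

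ATF4, the factor translated when eIF2 alpha is phosphorylated (chromosome 15, 80255184 to 80257541, plus strand), was at 116, 112 and 162 CPM in RD and 124, 109.8 and 109 CPM in HFD. RD replicate 3 alone was high. The log2 change was -0.19 ± 0.13 (95% interval -0.48 to 0.11; edgeR adjusted p = 0.404) and moved to -0.0027 without that library. DDIT3 encodes CHOP, a factor downstream of ATF4 (chromosome 10, 127290774 to 127296288, plus strand). DDIT3 was at 28.9, 27.6 and 30.1 CPM in RD and 26.2, 22.7 and 23.2 CPM in HFD, with no overlap. Its log2 change was -0.27 ± 0.10 (95% interval -0.49 to -0.04), it was not called (adjusted p = 0.125), and without RD replicate 3 the change was -0.24. The exons of DDIT3 share 68 bases (3.97%) with the methionyl-tRNA synthetase gene on the other strand, listed as MARS1, which was called lower (-0.47 ± 0.11, adjusted p = 0.0253) and was picked out for this overlap. The files do not show whether counting used strand, so shared reads cannot be assigned. The ratio of DDIT3 to ATF4 counts was 0.250, 0.246 and 0.186 in RD and 0.211, 0.207 and 0.212 in HFD, with overlap (exact permutation p = 0.40, two-sided; 0.53 adjusted).

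Among the CREB3 family, CREB3L1 carried the larger fall. CREB3L1 encodes OASIS, known from collagen-secreting cells and glia (chromosome 2, 91982328 to 92024502, minus strand). It was at 22.6, 27.0 and 59.9 CPM in RD replicates 1, 2 and 3, and at 13.7, 12.4 and 13.2 CPM in HFD. The groups did not overlap, and RD replicate 3 was more than double the other RD libraries. The RD mean of 36.5 ± 20.4 CPM compares with 13.1 ± 0.660 CPM in HFD (SD, n = 3 each). The log2 change was -1.48 ± 0.32 (SE; 95% interval -2.19 to -0.78; edgeR adjusted p = 0.0183), larger in size than 99.2% of tested changes. Without RD replicate 3 the log2 change was -0.93 ± 0.13 and its adjusted p was 0.00159. CREB3L1 was called in all 10 settings with other scalings, filters or tools, and in 3 of the 6 leave-one-out fits. Without HFD replicate 1, 2 or 3 it was not called (adjusted p = 0.0594, 0.0827 and 0.0869).

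CREB3L2, the closest relative of CREB3L1 here (chromosome 6, 37327255 to 37442146, minus strand), was at 531, 571 and 768 CPM in RD and 532, 512 and 475 CPM in HFD. The groups overlapped by less than 1 CPM, between RD replicate 1 and HFD replicate 1. The log2 change was -0.30 ± 0.12 (95% interval -0.57 to -0.03; edgeR adjusted p = 0.146). It was called without RD replicate 1 (-0.41, adjusted p = 0.0461), and without RD replicate 3 the change was -0.13. The ratio of CREB3L1 to CREB3L2 counts was 0.0426, 0.0473 and 0.0780 in RD and 0.0257, 0.0242 and 0.0277 in HFD. All HFD ratios lay below all RD ratios, a mean difference of -1.06 on the log2 scale and -0.80 without RD replicate 3. The exact two-sided permutation test of this ratio gave its smallest possible p of 0.10 (0.20 adjusted). CREB3, the founding member (chromosome 4, 43562332 to 43567060, plus strand), was at 41.2, 44.7 and 46.4 CPM in RD and 37.5, 41.0 and 37.4 CPM in HFD. Its groups did not overlap, but the log2 change of -0.19 ± 0.09 was not called (95% interval -0.38 to 0.00; adjusted p = 0.193), and without RD replicate 3 it was -0.16. Exons of TLN1 and GBA2 on the other strand cover 15.2% and 5.61% of the CREB3 exons. Neither neighbour was called (TLN1 -0.13 ± 0.06, GBA2 -0.01 ± 0.09).

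**Figure D2:**
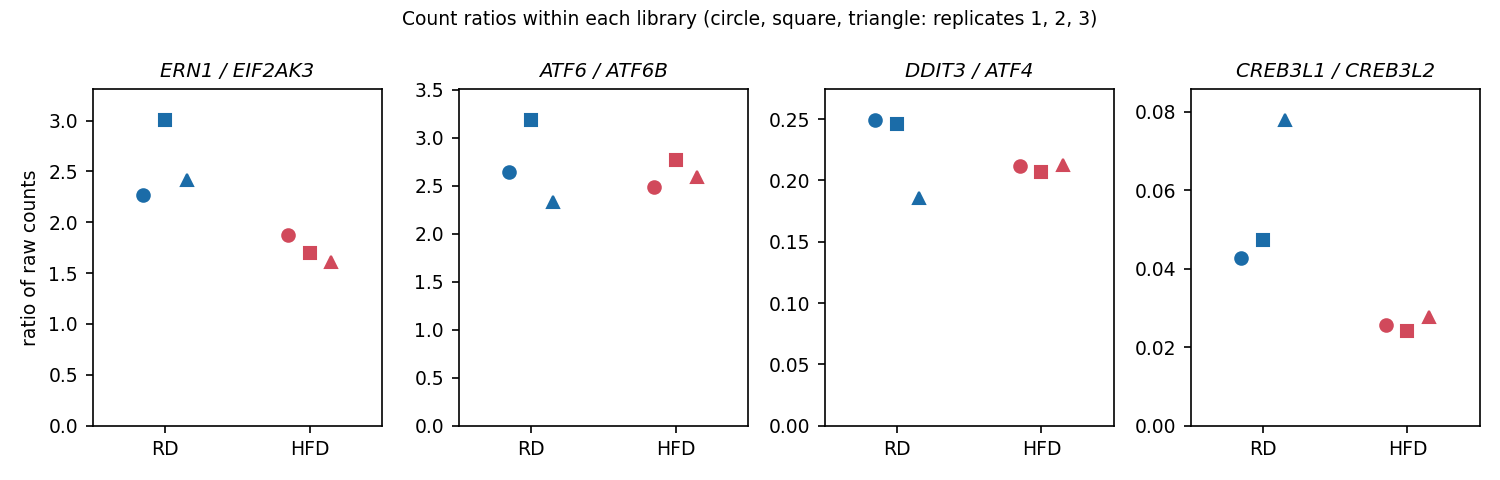
Ratio of raw counts of paired genes (y axis from 0, no unit) in the 3 RD (blue) and 3 HFD (red) libraries, with circles, squares and triangles for replicates 1, 2 and 3. The HFD points lie below the RD points for ERN1 / EIF2AK3 and CREB3L1 / CREB3L2 and overlap them for the other pairs.

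**Figure D3:**
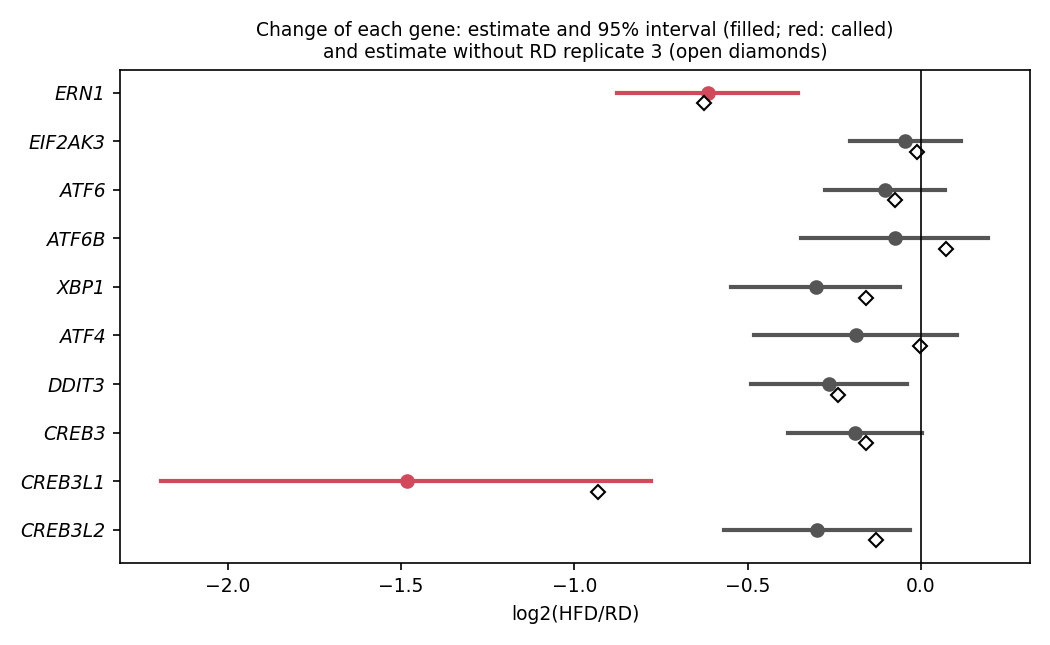
Log2(HFD/RD) of each gene (x axis) with its 95% interval from edgeR, red where called. Open diamonds give the estimate without RD replicate 3, which moved CREB3L1 from -1.48 to -0.93 and ERN1 from -0.62 to -0.63.

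Levels can be compared between genes only per length, so CPM was divided by the exon length of each gene in kilobases (union of GENCODE M21 exons). CREB3L2 was the most abundant in both groups, at 85.6 ± 17.4 CPM per kb in RD and 69.5 ± 3.92 CPM per kb in HFD (SD, n = 3 each). XBP1 (72.7 ± 13.0 and 58.9 ± 0.436 CPM per kb), ATF4 (55.2 ± 11.8 and 48.5 ± 3.58) and ERN1 (27.9 ± 4.74 and 18.2 ± 1.67) followed in that order in both groups. In RD the ranges of CREB3L2, XBP1 and ATF4 overlapped from neighbour to neighbour, while ERN1 stood clear of ATF4 above and of CREB3 below. In HFD the ranges of those top 4 genes were all separate, and ERN1 overlapped CREB3 (16.3 ± 0.872 CPM per kb). The remaining genes lay between 13.0 and 16.9 CPM per kb on average in RD, each overlapping its neighbour. CREB3L1 ranked ninth of the 10 in RD (14.0 ± 7.82 CPM per kb) and last in HFD (5.02 ± 0.255 CPM per kb), clear of ATF6 (12.1 ± 0.865 CPM per kb) above it.

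**Figure D4:**
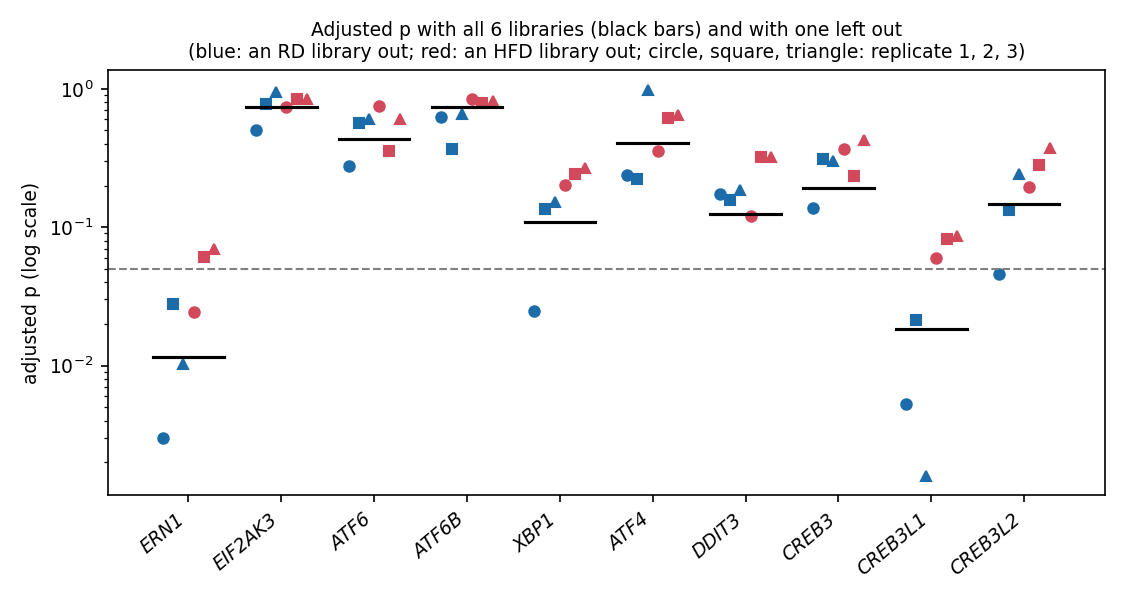
Adjusted p of each gene by edgeR (y axis, log scale) with all 6 libraries (black bars) and with 1 library left out (blue for an RD library, red for an HFD library, with circle, square and triangle for replicates 1, 2 and 3). The dashed line is 0.05. ERN1 crosses it without HFD replicate 2 or 3, CREB3L1 without any HFD library, and XBP1 and CREB3L2 drop under it without RD replicate 1.

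The genes around the sensors were followed in 8 lists of partners and targets, which together held 138 tested genes besides the 10. Of these, 16 were called lower and 5 higher (15.2%, against 10.5% of all tested genes), and their median log2 change was -0.11. With library size as the only scaling, 13 were lower and 9 higher. Leaving out RD replicate 3 gave 18 called genes and leaving out RD replicate 2 gave 13. The number dropped to 9 when HFD replicate 1 or HFD replicate 2 was absent, and to 4 when HFD replicate 3 was absent. Of the 21 called genes, ARFGAP3, COL1A2 and FOSL2 were called in each of the 6 leave-one-out fits. The others were lost in at least 1 of them, with edgeR adjusted p up to 0.157. Of the 21, 12 were called in all 10 settings with other scalings, filters or tools. With replicate number as a block, COPB1, CRELD2, DNAJB9, EIF2AK2, NCK2, PDIA4, PTPN1 and UFM1 lost their calls. For each list below, the shares over all tested genes are 4.61% called lower, 5.87% called higher and 50.4% below 0. The medians and the counts below 0 of each list are for TMM scaling with all 6 libraries, and were not redone in other settings. With library size only, log2 changes shifted up by a median of 0.068, which can turn the sign of small changes. Earlier results from these libraries were known when the listed genes were picked. A share above that of all tested genes, here or in a list below, can therefore come from that choice.

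Targets of cleaved ATF6, the ER chaperones and their helpers, leaned lower. Of 16 tested, 5 were called lower and 0 higher, 15 had a log2 change below 0, and the median was -0.21. Among all tested genes, 4.61% were called lower and 50.4% lay below 0. HSP90B1, the ER member of the HSP90 family, was at 986, 1015 and 1047 CPM in RD and 802, 847 and 816 CPM in HFD, with wide separation (edgeR adjusted p = 0.00801). DNAJC3 (-0.34 ± 0.07), the disulfide isomerase genes PDIA6 (-0.33 ± 0.06) and PDIA4 (-0.26 ± 0.07), and CRELD2 (-0.45 ± 0.12), an ER stress-inducible protein, were the other 4. HSPA5, which encodes the chaperone BiP that holds the sensors inactive, was at 823, 862 and 1037 CPM in RD and 717, 760 and 754 CPM in HFD. HSPA5 (adjusted p = 0.0567) and HERPUD1 (-0.27 ± 0.08, adjusted p = 0.0541) missed the threshold without overlap between the groups. SDF2L1 had a log2 change of -0.07 ± 0.10. CRELD2 was called in 1 and PDIA4 in 2 of the 6 leave-one-out fits. Neither was called with library size as the only scaling or with the replicate block.

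The full ER stress response element, CCAAT and CCACG with 9 bases between them on either strand, was found in 0.119% of RefSeq promoters (39 of 32851). Among tested genes 18 had such a promoter, of which 4 were called lower and 0 higher (22.2%, against 10.4% of tested genes with any promoter in the table), and the median log2 change was -0.11. The 4 were HSP90B1, DNAJC3, PDIA6 and CRELD2, all of which also belong to the list above, so the counts are not separate evidence. The short form, ATTGG and CCACG with 1 base between them, was found in 8 tested genes, with 0 called by edgeR, among them HERPUD1. The windows of HSPA5 and HSP90B1 are shown to place the full element relative to the start, with the full element and every further CCAAT or CCACG in capitals.
HSPA5 (chr2:34771840-34772139, plus strand): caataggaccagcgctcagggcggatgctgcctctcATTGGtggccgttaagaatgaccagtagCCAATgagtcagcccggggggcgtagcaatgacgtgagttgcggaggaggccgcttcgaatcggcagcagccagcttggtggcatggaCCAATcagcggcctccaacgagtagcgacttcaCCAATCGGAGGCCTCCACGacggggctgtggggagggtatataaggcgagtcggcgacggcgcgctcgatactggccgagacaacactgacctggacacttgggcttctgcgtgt
HSP90B1 (chr10:86705395-86705694, minus strand): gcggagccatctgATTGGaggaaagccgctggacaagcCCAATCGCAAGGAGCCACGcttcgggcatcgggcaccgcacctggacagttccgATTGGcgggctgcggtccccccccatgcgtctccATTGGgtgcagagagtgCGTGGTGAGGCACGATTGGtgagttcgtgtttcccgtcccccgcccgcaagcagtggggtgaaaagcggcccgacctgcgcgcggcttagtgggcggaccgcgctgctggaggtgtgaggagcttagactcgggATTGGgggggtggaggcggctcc
HSPA5 held 1 exact match to the full element, its first printed base 65 bases before the annotated start. HSP90B1 held 2, with first printed bases 212 and 107 bases before its start, the latter match on the other strand. A match of letters does not show that a factor binds there.

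Targets of spliced XBP1 lay almost all on the lower side, and 1 was called. Of 19 tested, 18 had a log2 change below 0, the median was -0.17, and 9 had no overlap between the groups with HFD lower. Among all tested genes, 50.4% lay below 0 and 15.6% had no overlap with HFD lower. DNAJB9, an ER cochaperone that restrains IRE1, was the called gene, at 114, 121 and 133 CPM in RD and 98.5, 101 and 103 CPM in HFD (-0.28 ± 0.07; edgeR adjusted p = 0.0406). DNAJB9 was called in 1 of the 6 leave-one-out fits, that without RD replicate 1. Upper-quartile scaling (edgeR adjusted p = 0.0537), library size only (0.0772) and the replicate block (0.0803) also lost its call. EDEM1, which directs misfolded glycoproteins to degradation, missed the threshold (-0.32 ± 0.10, adjusted p = 0.0668).

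Among 17 tested partners and regulators of IRE1, 3 were called lower and 0 higher, and the median was -0.01. PTPN1, the ER-anchored phosphatase PTP1B, was at 127, 143 and 174 CPM in RD and 117, 92.0 and 96.3 CPM in HFD (-0.54 ± 0.12; edgeR adjusted p = 0.0245). UFM1, a ubiquitin-like modifier of ER proteins (-0.44 ± 0.11), and PDIA6 were the others. TRAF2, the adaptor of IRE1 signalling to JNK, had a log2 change of -0.01 ± 0.11, and RTCB, the ligase that joins spliced XBP1, of 0.03 ± 0.07. ERN2, the relative of ERN1 found in mucosal epithelia, had 0 counts in every RD library and 5, 0 and 3 in HFD replicates 1, 2 and 3, and was not tested. PTPN1 was not called without HFD replicate 2 or 3, and UFM1 was called in 2 of the 6 such fits.

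Of 16 tested genes that process or partner ATF6, 0 were called by edgeR, whether higher or lower. MBTPS1, the site-1 protease that makes the first cut in ATF6, was higher in each HFD library (274, 269 and 279 CPM) than in any RD library (239, 244 and 213 CPM). Its log2 change of 0.24 ± 0.07 just missed the threshold (adjusted p = 0.0513). MBTPS2, the site-2 protease, stood at 32.1 ± 1.62 (RD) and 31.2 ± 1.47 CPM (HFD; SD, n = 3 each).

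In the eIF2 arm, 1 of 19 tested genes was called higher and 1 lower. EIF2AK2, the kinase PKR that senses double-stranded RNA, rose from 45.2, 51.2 and 43.7 CPM in RD to 56.9, 64.0 and 59.5 CPM in HFD (0.37 ± 0.09; edgeR adjusted p = 0.0327). NCK2, an adaptor that binds eIF2 phosphatase complexes, fell (-0.46 ± 0.11). The other eIF2 kinase genes EIF2AK1 (-0.12 ± 0.11) and EIF2AK4 (-0.14 ± 0.08) and the inducible phosphatase subunit gene PPP1R15A (0.14 ± 0.14) were not called. EIF2AK2 and NCK2 were each called in 2 of the 6 leave-one-out fits.

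Stress targets of ATF4 and CHOP split. Of 21 tested, 2 were called higher and 2 lower, with a median of -0.09. ASNS, asparagine synthetase, went from 64.4, 71.3 and 90.2 CPM in RD to 47.9, 48.8 and 47.4 CPM in HFD (-0.65 ± 0.12; edgeR adjusted p = 0.00957). VLDLR, a lipoprotein receptor, was at 97.1, 127 and 228 CPM in RD and 69.0, 61.9 and 58.9 CPM in HFD (-1.25 ± 0.25). The factor genes ATF3 (1.34 ± 0.32) and CEBPB (0.89 ± 0.21) rose, and each lost its call when RD replicate 2 or HFD replicate 1 or 3 was left out. TRIB3 (-0.08 ± 0.27) and CHAC1 (-0.43 ± 0.34), which respond to ATF4 and CHOP in many cells, were low and not called. The call of ASNS was lost without HFD replicate 3 and that of VLDLR without HFD replicate 2 or 3. Without RD replicate 3 the log2 change of VLDLR was -0.83 (adjusted p = 0.00148).

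Among 21 tested basic leucine zipper relatives and partners, 3 were called higher and 0 lower. FOSL2 (1.15 ± 0.18) and JUNB (1.46 ± 0.36), which form AP-1 dimers, rose, as did CEBPB. FOSL2 was at 126, 81.1 and 118 CPM in RD and 303, 215 and 203 CPM in HFD. CREB3L4 stood at 5.47 ± 1.52 (RD) and 5.69 ± 0.249 CPM (HFD; SD, n = 3 each). CREBZF, known to bind CREB3, had a log2 change of -0.11 ± 0.07. CREB3L3, the liver and gut member, had between 0 and 12 counts in a library and was not tested. JUNB was not called by DESeq2 (adjusted p = 0.0628) and was called in 2 of the 6 leave-one-out fits.

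Genes reported as targets of CREB3L1 or CREB3L2 are mostly coat proteins of ER-to-Golgi transport and matrix genes. Of 19 tested, 5 were called lower and 0 higher, against 4.61% and 5.87% of all tested genes, and the median was -0.17. The coat and transport genes ARFGAP3 (-0.42 ± 0.07), COPB2 (-0.37 ± 0.07), COPB1 (-0.34 ± 0.07) and SEC31A (-0.32 ± 0.06) fell. COL1A2, a chain of type I collagen, was at 248, 294 and 311 CPM in RD and 166, 168 and 195 CPM in HFD (-0.69 ± 0.10; edgeR adjusted p = 0.00338). COL1A1, the partner chain, had a log2 change of 0.16 ± 0.11, and FN1 of -0.17 ± 0.17. The calls of COPB1 and SEC31A were lost without HFD replicate 2 or 3, and that of COPB2 without any HFD library.

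**Figure D5:**
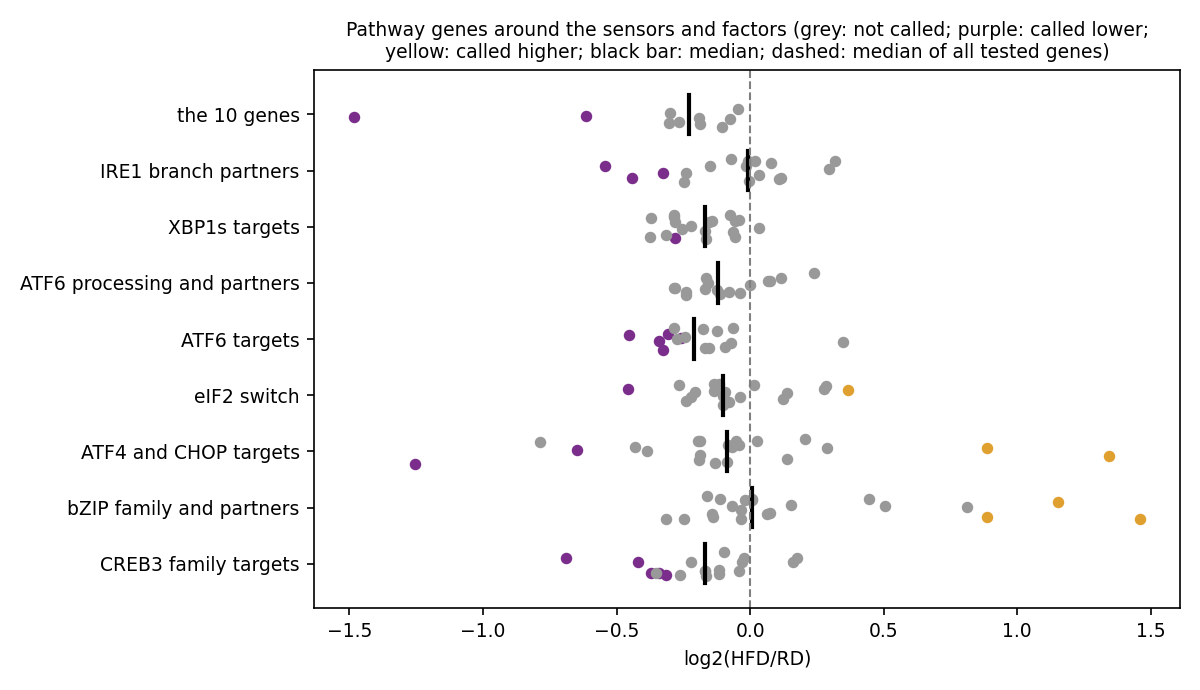
Log2(HFD/RD) of each gene (x axis) in the 10 sensors and factors and in 8 lists of their partners and targets (rows; vertical scatter within a row has no meaning). Purple points were called lower and yellow points higher, black bars are list medians, and the dashed line is the median of all tested genes. The medians of the ATF6, XBP1s and CREB3 family targets lie at -0.21, -0.17 and -0.17.

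Markers of other cell types were read beside the fall of CREB3L1, since fibroblasts and glia are known to express it. Of 6 fibroblast markers, COL1A2 alone was called lower and 0 were called higher, and their summed level ranged from 476 to 520.1 CPM in RD and from 334 to 429 CPM in HFD. COL1A2, which is also in the list of CREB3L1 and CREB3L2 targets, was the most abundant of the 6 in every library. The other 5 summed to 205 to 228 CPM in RD and 167 to 237 CPM in HFD, with overlap. The summed level of 5 pituicyte markers (glia of the posterior lobe) ranged from 167 to 271 CPM in RD and from 91.7 to 209 CPM in HFD, with overlap and 0 of 5 called by edgeR. None of these markers was at 0 in any library. Of the hypothalamic neuron markers, SIM1 and OTP were at 0 in 4 of the 6 libraries each, AVP was between 0.651 and 1.49 CPM, and OXT was between 1.53 and 6.06 CPM. Of 5 markers of plasma cells, which express much XBP1, JCHAIN, MZB1 and TNFRSF17 stood at or below 1.22 CPM in every library, CD79A at 1.30 to 3.19 CPM and DERL3 at 4.23 to 6.92 CPM. Their summed level was 7.48 to 7.89 CPM in RD and 8.39 to 11.6 CPM in HFD, higher in every HFD library. By edgeR, 0 of the 2 tested markers were called. DERL3, the largest part of that sum, is also in the list of ATF6 targets. In HFD replicate 1 it was at 4.23 CPM, below every RD library. Somatotroph markers were lower in HFD, with 3 of 4 called lower and a summed level of 59740 to 72600 CPM in RD and 37110 to 40200 CPM in HFD. Lactotroph markers had 2 of 3 called lower (14210 to 15810 CPM in RD, 9920 to 12540 CPM in HFD), 1 of them POU1F1, which the somatotroph list also holds. Gonadotroph markers had 3 of 4 called lower and 1 higher, with a summed level of 1345 to 1512 CPM in RD and 1023 to 1107 CPM in HFD. Thyrotroph markers went the other way, with 2 of 3 called higher and a summed level of 227 to 312 CPM in RD and 440.1 to 474 CPM in HFD. Of the markers of corticotrophs and melanotrophs 1 of 5 was called higher, of folliculostellate and progenitor cells 1 of 5, and of oligodendrocytes 2 of 3. Corticotroph and melanotroph markers summed to 5916 to 10020 CPM in RD and 6139 to 14340 CPM in HFD, with overlap. The oligodendrocyte sum was 182.3 CPM in HFD replicate 3, against 70.18 and 77.39 CPM in HFD replicates 1 and 2. In RD it was 59.35 to 71.37 CPM. Over all tested genes, 4.61% were called lower and 5.87% higher. The part of these marker shifts in the values of the 10 genes was not tested.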

How the data were processed

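The authors deposited 1 table of whole-number read counts per gene symbol, raw by its values, for 3 RD and 3 HFD pituitary libraries. The genome build was mm10, per the submitters' processing notes. Aligner, counter and annotation: not given in the sources used here. Low counts (1 to 10) were even in 64.0% to 67.0% of cases, and counts above 200 in 48.9% to 50.4%. Both mates of a pair may thus have been counted, and no counting intervals are given. Symbols on more than 1 row (43) were kept out of the lists. No libraries of a group were duplicates (chi-square per degree of freedom 4.48 to 21.1).

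All 16736 rows entered edgeR 4.0.16 in R 4.3.3 (filterByExpr with min.count 10 and min.total.count 15, TMM, quasi-likelihood test, two-sided, intercept and group), with Benjamini-Hochberg adjustment over the genes tested. A standard error is the size of the log2 change over the root of F, and intervals are 95%. The fit was run on counts simulated from its own dispersions with independent libraries, which does not cover a library that stands apart from its group. The 10 genes, the 8 lists and the tests were chosen with earlier results of these data known. Named genes are the 10, a fixed set of pathway genes, and up to 6 called genes per list by p (or the 2 with the smallest p). Coordinates are from GENCODE M21 (GRCm38). Alternatives were other scalings, filters, DESeq2 1.42.0, limma-voom (limma 3.58.1), halved counts, a replicate block, and each library left out.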

Additional observations from a re-analysis of the deposited data

How the results depend on the processing

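The count of 2 called genes among the 10 held in all 10 alternatives with other scalings, filters, tools, halved counts or the replicate block, and ranged from 0 to 4 with a library left out. All genes called numbered 1453 and ranged from 431 to 1523 with a library left out. Genes called in the lists numbered 21 and ranged from 4 to 25; leaving libraries out of the lists was chosen after seeing the data. Same-numbered libraries did not deviate together (correlations of -0.13, 0.0037 and -0.097). With 3 libraries per group these correlations cannot exclude that the numbers pair the samples. With the replicate block 808 genes were called, and ERN1 (adjusted p = 0.0294) and CREB3L1 (0.0208) were still called; the mean difference of each count ratio does not change under it by construction. Signs turned for 3 uncalled values: EIF2AK3 with library size only (0.024), ATF6B without RD replicate 3 (0.073; -0.19 to 0.073 over the libraries left out) and the ratio of ATF6 to ATF6B without RD replicate 2 (0.076; -0.15 to 0.076). With library size only, 1121 genes were called higher and 425 lower, against 814 and 639 with TMM, and the median of all genes shifted by 0.068. The cause of these shifts was not tested.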
